A study of Ambystoma mexicanum with 198 samples.

Results

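The genes described here are those that carry a cell through mitosis and share its chromosomes between the daughter cells. They were picked by symbol from the annotation of an axolotl microarray: cyclin B, Polo-like and Aurora kinase genes, the *cenp*, *bub*, *cdca*, *ncap*, *smc*, *mad2l* and *stag* families, mitotic kinesins and a short list of single genes. The rule found 79 genes, with 109 probes, among the 8639 genes named by a single symbol on the array. Each gene was read from its probe with the highest mean. The rule used names and no measured change. By function the 79 fell into mitotic kinases and cyclins (5), anaphase onset (4), spindle checkpoint (7), chromosomal passenger complex (3), centromere and kinetochore (15), spindle and kinesins (13), condensin (8), chromosome and nuclear structure (5), cytokinesis (6), cohesin (5), the SMC5/6 complex (2), other cell division associated genes (4) and a pair, *ckap4* and *pttg1ip*, that matched the rule by name but are known for other functions.

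The samples were the distal 1 mm of forelimbs of *Ambystoma mexicanum* amputated through the middle of the zeugopod (the forearm). Animals were 6 to 10 months old with a snout to vent length of 5 to 8 cm, and no transgene, drug or strain distinguished the groups. They came from different spawns and varied in body size, and the groups were set by time after amputation in days post amputation (DPA). The 20 time points ran from 0 DPA, taken at amputation, to 28 DPA, with 10 arrays each except 9 at 16 and 9 at 28 DPA. The tissue was heterogeneous, and its cell types were not separated. The methods call the arrays of a time point biological replicates and give as many animals as arrays hybridised. In such bulk tissue, more dividing cells and more transcript per cell cannot be told apart.

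Array sample codes put replicates 1 to 5 and 6 to 10 in separate series. The codes changed between 2 and 3 DPA and between 18 and 20 DPA in both sets, and between 9 and 10 DPA in replicates 6 to 10. From 2 to 3 and 18 to 20 DPA the series and the time cannot be told apart, whereas from 9 to 10 DPA replicates 1 to 5 stayed within a series. Intervals from 0 to 2, 3 to 9, 10 to 18 and 20 to 28 DPA lay inside a series. The first set carried one code at 0 to 2 and again at 20 to 28 DPA, which allowed a comparison of 0 with 24 DPA within it. Array medians lay between 5.70 and 5.90 and arrays of a time point correlated at 0.962 to 0.994. The source names of 2 arrays titled 0.5 DPA disagreed with their titles, which were followed.

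A cell that enters mitosis condenses its chromosomes with condensin and with topoisomerase II, while cohesin still holds the sister chromatids together. Cyclin B with its kinase partner, and the Polo and Aurora kinases, drive the entry, and kinetochores assembled on the centromeres attach the chromosomes to spindle microtubules. The spindle checkpoint holds back the anaphase-promoting complex until every chromosome is attached, after which securin and cyclin B are destroyed, separase opens cohesin and the cell divides. Limb regeneration in salamanders depends on a blastema, a mound of proliferating cells beneath the wound epidermis.

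Values are log2 intensities, so a difference of 1 is a doubling. Calls required a limma p under 0.05 after Benjamini-Hochberg adjustment over all probes, together with a log2 difference of 0.58 or more (1.5-fold) either way. Probe intensities do not rank 1 gene against another, and levels are compared only within a gene.

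The genes moved together over the 28 days. Over both sets of replicates, their mean dipped during the first 2 days and returned to the level of the freshly amputated limb at about 3 DPA. It climbed to 5 DPA, sagged at 9 to 12 DPA and rose again to 26 DPA. The sets differed in this course. In replicates 1 to 5 the means of days 0, 0.5, 1, 1.5 and 2 were 7.07, 6.88, 6.85, 6.59 and 7.03. Those of replicates 6 to 10 were 7.43, 7.44, 7.45, 7.19 and 7.05. The first set was thus back near its starting level by day 2, when the second was lowest. On days 5, 7, 9 and 12 replicates 1 to 5 averaged 7.88, 8.00, 7.96 and 7.95. Replicates 6 to 10 averaged 8.16, 8.00, 7.65 and 7.76, so the sag was mainly theirs. At 0 DPA the mean of the 79 genes was 7.25 ± 0.31 (SD, n = 10 arrays). It had dropped to 6.89 ± 0.37 by 1.5 DPA, stood at 7.27 ± 0.19 on day 3 and reached 8.02 ± 0.19 on day 5. After 7.81 ± 0.19 on day 9 it climbed to 8.29 ± 0.09 on day 24 and 8.41 ± 0.11 on day 26, and the 9 arrays of day 28 averaged 8.17 ± 0.09. The lowest time-point mean fell at 1.5 DPA for 42 of the 79 genes and the highest at 26 DPA for 50. Over the 20 time-point means the median correlation between pairs of the genes was 0.87 (3081 pairs), given as a description because the pairs share genes and arrays. The median range over the time points was 1.68 for the 79 genes and 0.57 over all 20035 probes. Of the 79, 12 had a mean in the lower 50% of probes, so these medians are not matched for intensity.

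**Figure D1:**
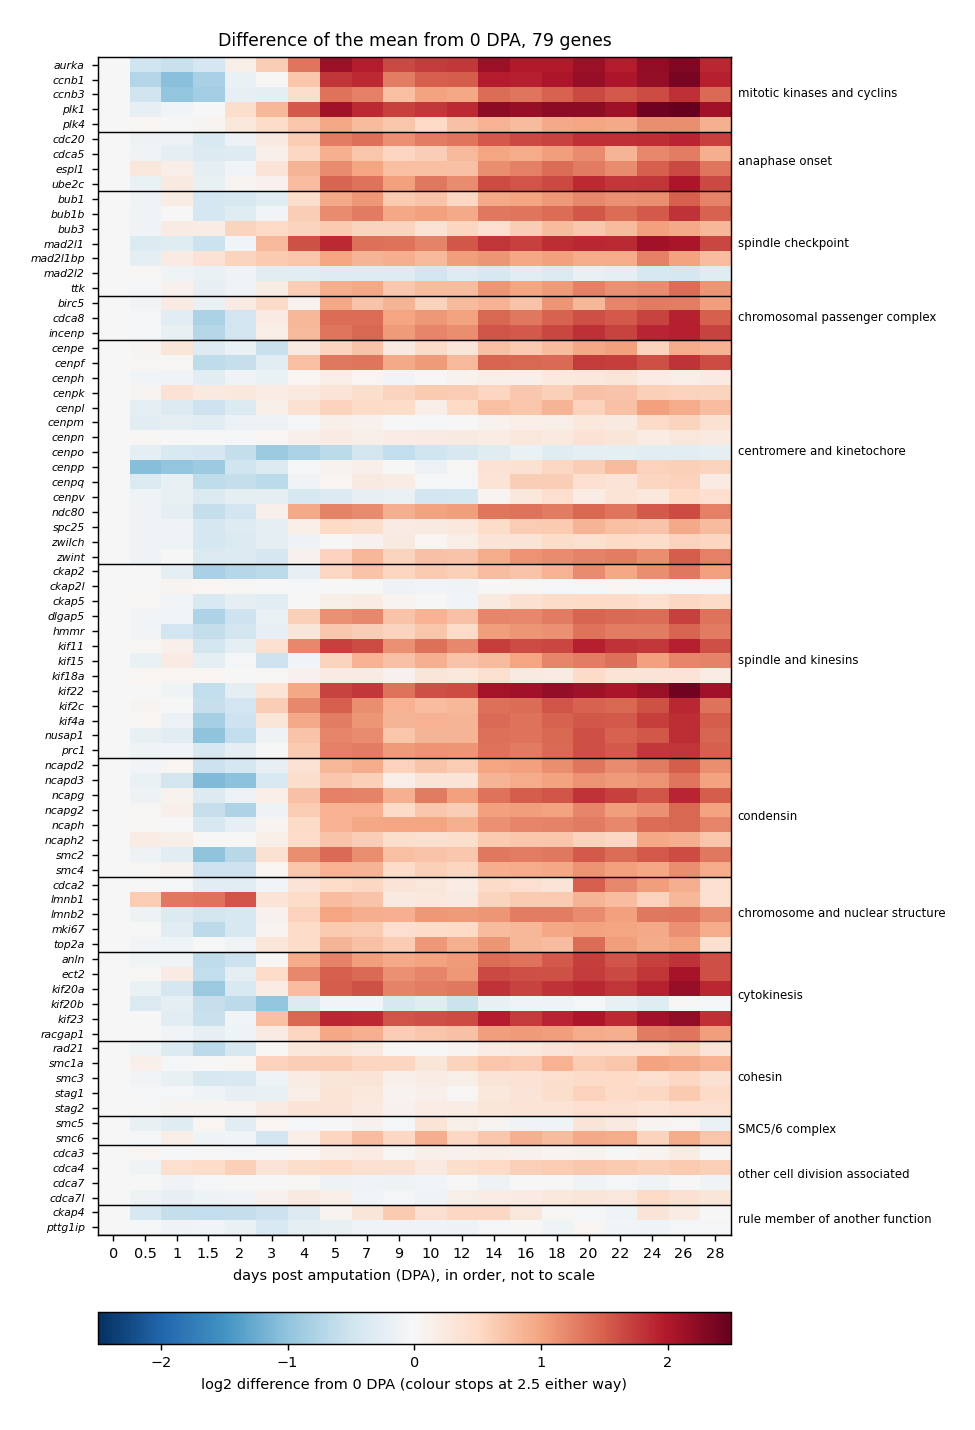
Mean log2 difference from 0 DPA for each of the 79 genes (rows, grouped by role) at the 20 time points (columns, in order and not to scale), with red above and blue below 0 DPA. Most rows are blue at 1.5 and 2 DPA and red from 4 or 5 DPA on, whereas *lmnb1* is darkest red at 1 to 2 DPA, *cenpo* is below 0 DPA at every later time and *mad2l2* is below it from 1 DPA on.

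Spread was unequal. Replicates 1 to 5 averaged 7.07 over the 79 genes at 0 DPA whereas replicates 6 to 10 averaged 7.43, and arrays ran from 6.80 to 7.78. At 24 DPA the sets stood at 8.35 and 8.24 and arrays ran from 8.14 to 8.41. From 0 to 24 DPA the median difference was larger in the first set (1.32) than in the second (0.84), and this contrast between sets was not tested over the list.

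The mean of the list was lowest within the first 2 days. Its minimum fell on day 1.5 in replicates 1 to 5 and on day 2 in the others. *lmnb1*, which encodes the nuclear lamina protein lamin B1, rose over these days. From 0 to 2 DPA, 8 of the 79 genes fell, 2 rose and 69 were not called. Over all 20035 probes 7.54% were called lower and 6.70% called higher, so the share of the 79 that fell was near that of the array. The median difference was −0.23 for the 79 genes and 0.01 for all probes. With arrays centred on their medians 5 of the 79 fell, and in replicates 1 to 5 alone 4 fell.

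Of the 8 genes that fell, 3 encode parts of condensin, which folds chromosomes into compact rods. This is given as a description, because the count of falls was near the array's share. *ncapd3*, a subunit of condensin II, had its lowest, median and highest arrays at 7.85, 8.39 and 9.04 at 0 DPA and at 6.65, 7.35 and 8.21 at 2 DPA. The groups overlapped, and the mean fell by 1.03 (SE 0.21, limma adjusted p = 0.000593). *ncapg2*, of the same complex, fell by 0.77, and *smc2*, the ATPase core of both condensins, by 0.69 (adjusted p = 0.0413). The *smc2* call was lost under 9 of the 15 alternative settings. The other 5 that fell were *ckap2* (−0.72), a microtubule-associated protein gene, *kif20b* (−0.66), a kinesin of cytokinesis, the inner kinetochore genes *cenpo* and *cenpq* (each −0.60), and *ckap4* (−0.60), one of the pair with another known function.

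*lmnb1* was at 6.96, 7.91 and 8.58 (lowest, median, highest) at 0 DPA and at 8.85, 9.34 and 9.88 at 2 DPA. Every array of 2 DPA lay above every array of 0 DPA, and the difference was 1.57 (SE 0.18, limma adjusted p = 5.85e-07). The difference was 2.06 for replicates 1 to 5 against 1.08 for the others. *lmnb1* was already called higher at 0.5 DPA. *cdca4*, a regulator of transcription in the cell cycle, was the other gene that rose (0.60, SE 0.07), with no overlap of the groups. *lmnb2*, the other B-type lamin gene of the list, was not called, with a difference of −0.39.

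At 1.5 DPA, an interval examined after its values were seen, 15 of the 79 genes were lower than at 0 DPA and 1, *lmnb1*, was higher. The share of all probes called lower was 7.28%. The 15 included the proliferation marker *mki67* (−0.66), the spindle genes *kif4a* (−0.83), *nusap1*, *ckap2*, *dlgap5* and *hmmr*, the condensin genes *ncapd3* (−1.11) and *smc2* (−1.01), and the cohesin ring gene *rad21* (−0.65, SE 0.09, limma adjusted p = 7.87e-06), whose arrays of 1.5 DPA all lay below those of 0 DPA. Over the 79 genes the median difference was −0.56 for replicates 1 to 5 against −0.23 for the others, and the sets alone called 27 and 9 lower.

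The mitotic kinases and cyclins were not called at 2 DPA in either direction. *plk1*, the Polo-like kinase of mitotic entry, was at 6.13, 7.18 and 8.37 at 0 DPA and at 6.80, 7.49 and 8.54 at 2 DPA. The groups overlapped and the difference was 0.43 (SE 0.28, limma adjusted p = 0.266), with 0.89 for replicates 1 to 5 against −0.02 for the others. The checkpoint genes *bub3* (0.56) and *mad2l1bp* (0.55) passed the adjusted p but not the fold threshold.

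**Figure D2:**
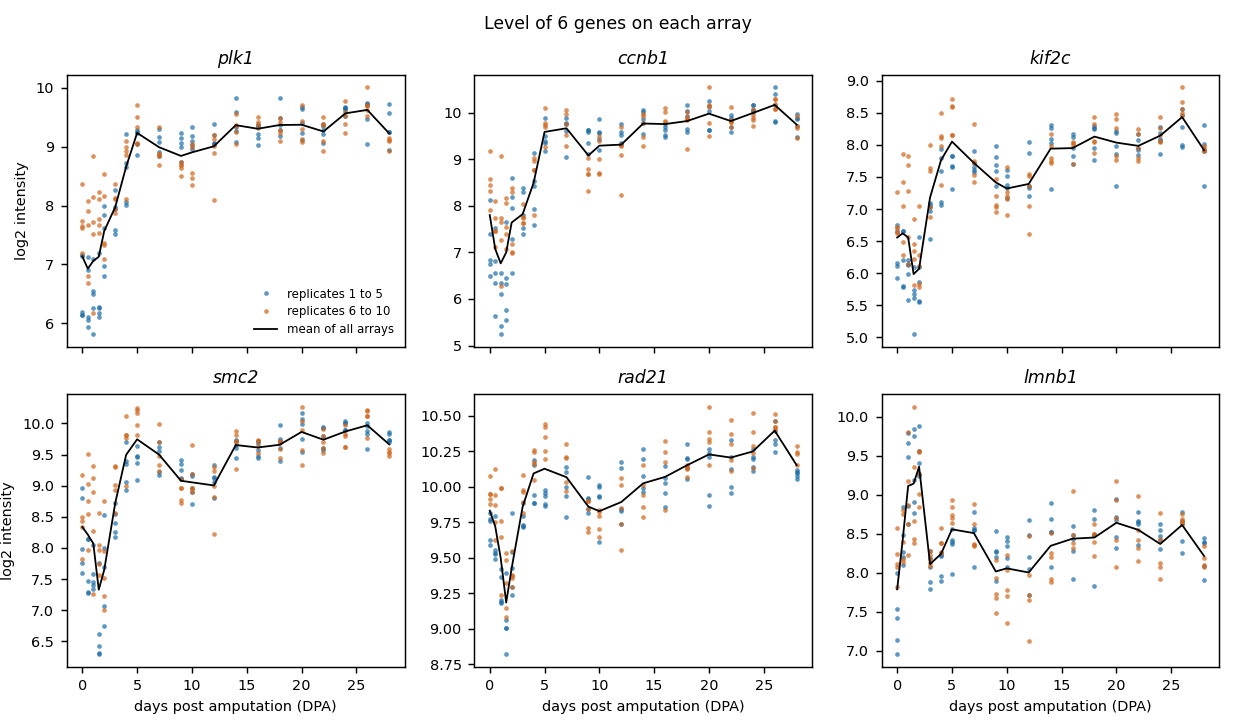
Log2 intensity (vertical axis) of 6 genes on every array against days post amputation, in blue for replicates 1 to 5 and orange for replicates 6 to 10, with a black line through the means of all arrays. The means of *plk1*, *ccnb1*, *kif2c* and *smc2* from 4 DPA on lie above all their means of 0 to 2 DPA. *rad21* varies over a smaller range with its lowest mean at 1.5 DPA, and *lmnb1* peaks at 2 DPA, at 9.36, and returns to 8.11 at 3 DPA.

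Between 2 and 3 DPA, 10 of the 79 genes rose and 1 fell. They were led by a microtubule-depolymerizing kinesin and the condensin core. Over all probes 1.64% were called higher and 0.913% lower, and the median difference was 0.24 for the 79 genes and −0.01 for all probes. *kif2c*, the kinesin that corrects faulty kinetochore attachments, had arrays at 5.55, 5.98 and 7.05 at 2 DPA and at 6.53, 7.04 and 8.00 at 3 DPA. The groups overlapped, and the difference was 1.11 (SE 0.19, limma adjusted p = 0.00147), with 1.01 for replicates 1 to 5 against 1.21 for the others.

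*smc2* went from 6.75, 7.61 and 8.75 to 8.17, 8.64 and 9.31, a rise of 1.07 (SE 0.23, adjusted p = 0.00664). With *smc4*, its partner in the condensin ring (0.58), and the condensin II genes *ncapd3* and *ncapg2* (each 0.64), 4 of the 8 condensin genes rose. *mad2l1*, which encodes the checkpoint protein that holds CDC20 inactive, rose by 0.89 from arrays at 6.78, 7.62 and 8.58 to arrays at 7.91, 8.32 and 9.19. The central spindle kinesin genes *kif23* (0.82) and *kif4a* (0.81) rose, and so did *cdca8* (0.69) and *incenp* (0.63), which encode the borealin and INCENP subunits of the Aurora B complex. None of the 15 centromere and kinetochore genes, the 5 cohesin genes or the 5 mitotic kinases and cyclins was called. *plk1* differed by 0.40 and *ccnb1* by 0.18. These counts rest on 1 probe per gene. The paper lists a *stag2* probe as changed here, whereas the mean of the probe used went from 10.00 to 10.15. It also lists *anln*, which differed by 0.59 and was not called (limma adjusted p = 0.145). *mki67*, which the paper names as increasing here, differed by 0.47. Its limma adjusted p (0.00594) passed, but not the fold threshold.

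*lmnb1* was the gene that fell. Its arrays at 3 DPA, at 7.79, 8.15 and 8.28, all lay below those of 2 DPA, and the difference was −1.25 (SE 0.10, limma adjusted p = 1.98e-06). Sample codes changed in this interval, so series and time cannot be told apart. The sets alone called 3 and 2 of the 79 higher. The change differed between the sets for 4 genes, by limma's interaction term, near the share of 5.12% of all probes: *cenpl*, *cenpp*, *smc5* and *top2a*.

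From 3 to 4 DPA, inside a code series and examined after its values were seen, 8 of the 79 rose and 0 fell, whereas 0.105% of all probes (21 of 20035) were called higher. At limma's unadjusted p under 0.05, 51 were higher and 0 lower (5.23% and 2.55% of all probes). The 8 were the condensin genes *ncapd3* (0.83), *ncapg2* (0.77) and *smc4* (0.63), the cytokinesis genes *anln* (0.88) and *kif20b* (0.66), the spindle genes *nusap1* (0.85) and *kif4a* (0.65), and the kinetochore gene *cenpf* (1.02, SE 0.21, limma adjusted p = 0.0404). Both sets had similar medians over the 79 genes, 0.41 for replicates 1 to 5 and 0.42 for the others. In both sets 70 of the 79 differences were positive, a sign count without its share over all probes. The count of genes called higher ranged from 0, in either set alone, to 28 over the alternative settings, without shares of all probes under those settings.

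Against 0 DPA, 6 genes were called higher on day 3, 29 on day 4, 46 on day 5 and 48 on day 7. Of all probes 8.87% were called higher on day 3, so the 6 genes were near the array's share, and 8.56%, 9.61% and 9.39% on days 4, 5 and 7. The first such call came on day 3 for 6 genes, on day 4 for 23 and on day 5 for 16. At 9 DPA the number stood at 36, against 10.5% of all probes. From 14 to 28 DPA it lay between 50 and 58, where 10.7% to 12.9% of all probes were called higher, with 58 at 26 DPA (11.7%). Of the 79 genes 60 were called higher at 1 or more of the 19 times, against 24.3% of all probes, and 18 were called lower at 1 or more, against 17.7%. All 19 comparisons share the 0 DPA arrays. From 3 to 18 DPA both sets carry other codes than at 0 DPA, so series and time cannot be told apart in those comparisons. From 20 to 28 DPA this holds for replicates 6 to 10.

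**Figure D3:**
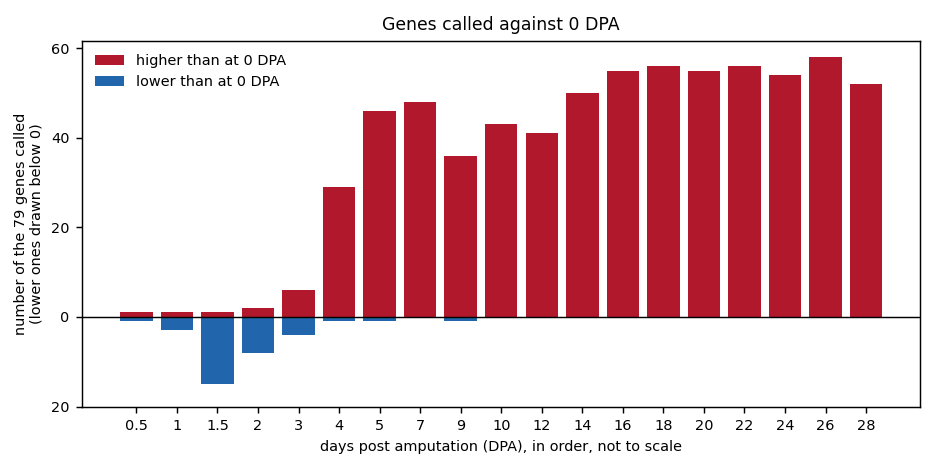
Number of the 79 genes called higher (red, above the line) or lower (blue, below the line) than at 0 DPA by limma at each later time point, in order and not to scale. Lower calls peak at 15 at 1.5 DPA, and higher calls go from 6 at 3 DPA to 46 at 5 DPA and 58 at 26 DPA. Sample codes differ from those of 0 DPA in both sets at 3 to 18 DPA and in replicates 6 to 10 at 20 to 28 DPA.

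Within the intervals that kept 1 code series, 30 of the 79 genes rose along the slope from 3 to 9 DPA and 0 fell, where 2.44% of all probes rose and 3.10% fell. At limma's unadjusted p under 0.05, 51 rose and 4 fell (19.5% and 13.1% of all probes). The largest rises over the 6 days were those of the spindle motor gene *kif15* (1.24, SE 0.20) and of *ccnb1* (1.22, SE 0.26). The median fitted change over the 79 genes was 0.70 for replicates 1 to 5 against 0.12 for the others. The sets alone called 47 and 2 genes, with no share of all probes from the same fits beside them. A straight line does not follow a rise with a later fall, so these values do not compare the size of the rise. The list means on days 3, 5 and 9 were 7.19, 7.88 and 7.96 in replicates 1 to 5. In replicates 6 to 10 they were 7.36, 8.16 and 7.65, so the second set rose to day 5 and was lower again on day 9. From 7 to 9 DPA 12 of the 79 differences were positive, a sign count without its share over all probes. None of the 79 was called by limma, although 39 were lower and 1 higher at an unadjusted p under 0.05 (4.06% and 4.91% of all probes). From 9 to 10 DPA none of the 79 was called in either direction (0.00499% of all probes in each), with 5 higher and 6 lower at an unadjusted p under 0.05 (6.31% and 5.43% of all probes) and 0 by the methods' t-test at p 0.01. These counts rest on 1 probe per gene. The paper lists another *smc4* probe as changed in this interval and names *smc4* among genes that rose, whereas the probe used here differed by 0.13. The first set alone, within its series, called 0 in either direction, and the second set alone, whose code changed there, called 3 higher. The shares of all probes above are from both sets and do not apply to these single-set counts. None passed the interaction between set and time (0.883% of all probes), although 22 did at an unadjusted p under 0.05 (11.1% of all probes).

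From 10 to 18 DPA 13 genes rose along the slope and 0 fell, against 2.67% and 3.98% of all probes. At an unadjusted p under 0.05 the limma fit had 65 rising and 3 falling (22.8% and 16.7% of all probes). The 13 called genes included *cenpv* (1.00), *kif2c* (0.87), *ncapd3* (0.78), *smc2* (0.72) and *espl1* (0.72), which encodes separase. The first set alone called 8 and the second 32. From 18 to 20 DPA, where codes changed, 1 gene of the 79 rose and 0 fell (0.329% and 0.0399% of all probes), with 9 and 2 at an unadjusted p under 0.05 (6.91% and 4.83%). It was *cdca2*, a phosphatase-targeting gene of anaphase chromatin. Its arrays stood at 3.87, 4.45 and 5.25 at 18 DPA and at 4.91, 5.64 and 6.16 at 20 DPA, a difference of 1.18 (SE 0.18, limma adjusted p = 0.00505), and the groups overlapped. The paper also lists other *smc4* probes as changed from 18 to 20 DPA, whereas the probe used here differed by 0.16. It lists a *top2a* probe as well, and *top2a* here rose by 0.63 (SE 0.15) but was not called (limma adjusted p = 0.0523). None of the 79 passed the interaction there by limma (5.71% of all probes), and 10 did at an unadjusted p under 0.05, below the 20.2% of all probes.

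From 20 to 28 DPA 0 genes rose along the slope and 2 fell, against 1.08% and 1.92% of all probes. The unadjusted p of the limma fit was under 0.05 for 6 rising and 9 falling genes (11.5% and 12.5% of all probes). The 2 called as falling, *cdca2* and *top2a*, were near the share of all probes, so their count is not a result about the list. *cdca2* changed by −0.98 (SE 0.16), and *top2a*, the topoisomerase that untangles sister chromatids, by −0.80 (SE 0.14, limma adjusted p = 4.78e-05). *top2a* arrays stood at 6.88, 7.25 and 7.68 at 20 DPA and at 5.92, 6.27 and 7.06 at 28 DPA, and the groups overlapped. The *top2a* fall began from its highest time-point mean, 7.31 at 20 DPA, which followed 6.68 at 18 DPA across the change of codes. From 26 to 28 DPA 74 of the 79 differences were negative or 0, with a median of −0.24, both without a value over all probes. None was called by limma, although 48 were lower and 0 higher at an unadjusted p under 0.05 (4.93% and 4.51% of all probes).

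By 24 DPA most of the list was above the freshly amputated limb, led by the kinases and cyclins of mitotic entry. Of the 79 genes 54 rose, 0 fell and 25 were not called, whereas 12.9% of all probes were called higher and 9.30% lower. At an unadjusted p under 0.05 the limma fit had 69 higher and 3 lower (33.5% and 19.3% of all probes). The median difference was 1.14 for the 79 and 0.06 for all probes. For 51 of the 79 genes every array of 24 DPA lay above every array of 0 DPA, as it did for 8.80% of all probes. Within the single code series of replicates 1 to 5, with 5 arrays at each time, 57 rose, 0 fell and 22 were not called, against 15.3% and 9.89% of all probes, and the median difference was 1.32. Without adjustment 67 were higher and 2 lower there (28.4% and 19.6% of all probes). In that series 62 genes did not overlap upward and 1 downward, against 19.8% and 12.3% of all probes.

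**Figure D4:**
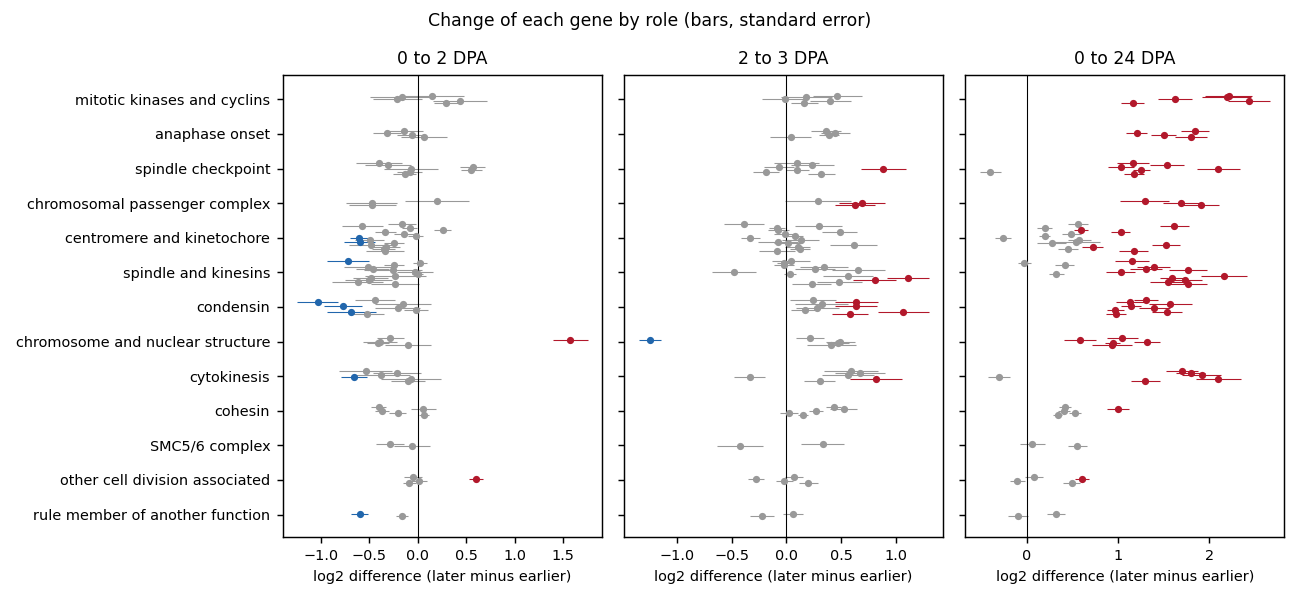
Log2 difference (horizontal axis, later minus earlier) of each of the 79 genes by role, with bars of 1 standard error, for 0 to 2, 2 to 3 and 0 to 24 DPA. Red and blue points were called higher and lower by limma, and grey points were not called. At 24 DPA all condensin, kinase and cyclin, anaphase onset, passenger and chromosome structure genes are red, and 1 of 5 cohesin genes is.

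All 5 mitotic kinases and cyclins rose. *plk1* arrays stood at 6.13, 7.18 and 8.37 at 0 DPA and at 9.23, 9.61 and 9.79 at 24 DPA, without overlap. The difference was 2.43 (SE 0.23, limma adjusted p = 2.00e-08), a 5.40-fold rise, which was 3.08 for replicates 1 to 5 against 1.79 for the others. Within the single series *plk1* read 6.13, 6.19, 7.15, 7.16 and 6.14 at 0 DPA and 9.67, 9.63, 9.53, 9.65 and 9.66 at 24 DPA. *aurka*, the Aurora kinase of the spindle poles, went from 5.92, 7.31 and 8.60 to 8.87, 9.31 and 9.45, also without overlap (2.21, SE 0.26). *ccnb1*, the B cyclin that activates the mitotic kinase, went from 6.49, 8.02 and 9.16 to 9.70, 10.02 and 10.17 (2.19, SE 0.27). In the single series its arrays of 0 DPA ran from 6.49 to 8.13 and those of 24 DPA from 10.01 to 10.17. *ccnb3* rose by 1.62 and *plk4*, the kinase that licenses centriole duplication, by 1.16.

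All 4 genes of anaphase onset rose. *cdc20*, the activator of the anaphase-promoting complex, went from 8.41, 9.23 and 9.98 to 10.72, 10.97 and 11.15, without overlap, by 1.84 (SE 0.16, limma adjusted p = 3.91e-09). *ube2c*, its ubiquitin-conjugating partner, rose by 1.80, *espl1* by 1.50 and *cdca5*, which encodes the cohesin protector sororin, by 1.20. In the spindle checkpoint 6 of 7 rose, from *bub3* (1.03) to *mad2l1* (2.10). *bub1*, a checkpoint kinase, went from 6.23, 7.54 and 8.03 to 8.35, 8.55 and 8.73 (1.16, SE 0.18). The seventh was *mad2l2*, known as a subunit of DNA polymerase zeta as well as for its likeness to *mad2l1*. Its arrays stood at 8.03, 8.34 and 8.79 at 0 DPA and at 7.49, 7.98 and 8.41 at 24 DPA, and its difference of −0.40 did not pass the fold threshold.

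The 3 passenger genes rose: *incenp* by 1.91, *cdca8* by 1.69 and *birc5*, which encodes survivin, by 1.29. In the spindle group 10 of 13 rose. *kif22*, the kinesin that pushes chromosome arms, rose by 2.16, *kif11*, the motor that separates the spindle poles, by 1.77 from 6.79, 7.98 and 9.01 to 9.44, 9.63 and 9.85, and *kif2c* by 1.59. The 3 not called were *ckap5*, *kif18a* and *ckap2l*. In cytokinesis 5 of 6 rose, among them *kif23* (2.10), *kif20a* (1.92), *ect2* (1.80), which encodes the RhoA activator of the cleavage furrow, *anln* (1.70) and *racgap1* (1.30). The sixth, *kif20b*, went from 8.24, 8.44 and 9.11 to 7.87, 8.23 and 8.75, with overlap and a difference of −0.31.

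Condensin rose as a whole, 8 of 8, from *ncaph2* (0.97) to *ncapg* (1.57). *smc2* went from 7.60, 8.38 and 9.18 to 9.62, 9.90 and 10.03, without overlap, by 1.53 (SE 0.17, limma adjusted p = 1.32e-07), and *smc4* from 8.95, 9.56 and 9.88 to 10.16, 10.48 and 10.56, by 0.98 (SE 0.11). The 5 genes of chromosome and nuclear structure rose. *mki67*, which coats mitotic chromosomes, went from 9.67, 10.04 and 10.43 to 10.80, 10.95 and 11.25, by 0.94 (SE 0.08). *top2a* went from 5.20, 5.71 and 7.49 to 6.46, 6.89 and 7.15, with overlap, by 0.93 (SE 0.22). *lmnb1* rose by 0.58, from 1.06 for replicates 1 to 5 and 0.10 for the others, and its call was lost under 4 of the 15 alternative settings.

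Cohesin, which acts on chromosomes outside mitosis too, rose in 1 of its 5 genes, *smc1a* (1.00, SE 0.13). The other 4 passed the adjusted p but not the fold threshold. *rad21* went from 9.59, 9.85 and 10.07 to 10.11, 10.22 and 10.52, without overlap, a difference of 0.42 (SE 0.07, limma adjusted p = 1.98e-05). *smc3*, the partner of *smc1a* in the ring, went from 8.90, 9.16 and 9.41 to 9.37, 9.59 and 9.76, with overlap, a difference of 0.40 (SE 0.07). *stag1* and *stag2*, the alternative ring-bound subunits, differed by 0.52 and 0.34. Of the SMC5/6 pair, which serves DNA repair, none was called, with differences of 0.55 for *smc6* and 0.06 for *smc5*. For *smc6* 24 DPA was lower than its neighbours: its mean was 7.21 at 0 DPA, 8.13 at 22, 7.76 at 24 and 8.15 at 26 DPA.

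The centromere and kinetochore genes were split. Called higher were 6 of 15: *cenpf* (1.62), *ndc80* (1.52), whose product binds microtubules, *spc25* (0.72), whose product anchors the same complex to the inner kinetochore, *zwint* (1.17), *cenpl* (1.03) and *cenpk* (0.59). *cenpe*, the kinetochore motor, went from 6.28, 6.80 and 7.39 to 7.11, 7.38 and 7.70, with overlap, a difference of 0.56 (SE 0.11) that missed the fold threshold. Its mean was higher at the neighbouring times, with 6.81 at 0 DPA, 7.83 at 22, 7.37 at 24 and 7.74 at 26 DPA. The other 8 lay between −0.26 (*cenpo*) and 0.58 (*cenpp*, under the fold threshold before rounding). Of the remaining 6 genes of the list, *cdca4* rose (0.60) and *cdca3*, *cdca7*, *cdca7l*, *ckap4* and *pttg1ip* were not called. Of the 25 not called, 3 (*ckap2l*, *kif18a* and *smc5*) had a mean in the lowest 25% of probes and 8 in the lower 50%. In all, 12 of the 79 lay in the lower 50%, and 4 of them were called.

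Across the 20 time-point means, 65 of the 79 genes followed the mean of the other 78 with a correlation over 0.8, and 4 were below 0: *mad2l2* (−0.71), *ckap2l* (−0.37), *cdca7* (−0.34) and *lmnb1* (−0.31). Of 30 further probes for 23 of the genes, 18 followed the chosen probe with a correlation over 0.8 and 1, for *cenpe*, was below 0. Outside the list, the courses most like the mean of the 79 were those of *nup85* (0.99), a nuclear pore gene, *melk* (0.99), a mitotic kinase gene, *depdc1b*, *cks2*, *mettl14*, *dis3*, *rrm1*, *stmn1*, *tacc3* and *vrk1*, over the same 20 time points.

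Other cell division genes gave the setting. Of 53 further mitosis genes that the rule did not take, 27 rose and 0 fell from 0 to 24 DPA, with a median of 0.60, among them *melk* (2.35) and *ccna2* (1.83), the A-type cyclin, against the 12.9% of all probes called higher. Of 48 DNA replication genes 30 rose and 0 fell (median 0.74). At 2 to 3 DPA 5 of the 53 and 14 of the 48 rose, the latter including *tk1* (1.17), a thymidine kinase gene of nucleotide salvage, where 1.64% of all probes were called higher. Of 17 cell cycle transcription factor genes 7 rose by 24 DPA, such as *e2f8* (1.84) and *mybl2* (1.37), and *foxm1* differed by 0.07. None of 4 genes of CDK inhibitors was called.

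**Figure D5:**
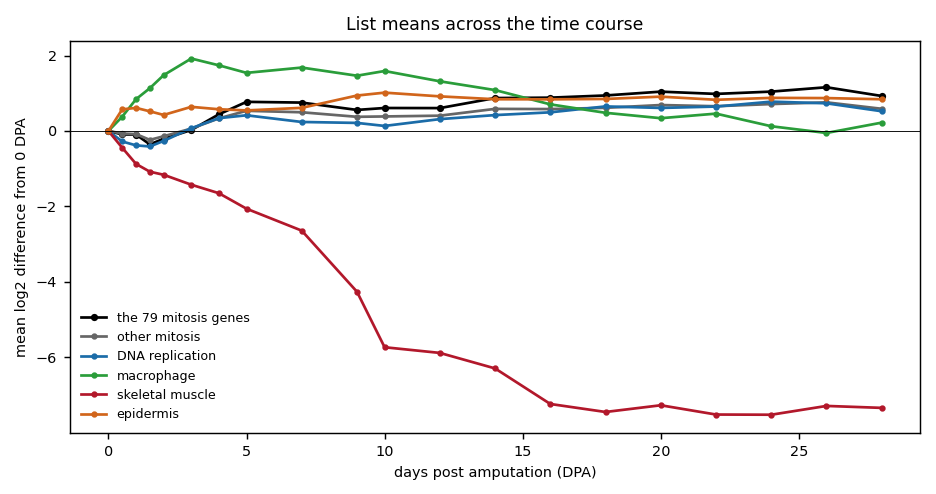
Mean log2 difference from 0 DPA of the 79 genes and of 5 other gene lists against days post amputation, each point averaging the list's genes over the arrays of a time point. The mitosis and replication lists are below 0 at 1.5 DPA and above it from 4 DPA on, and the macrophage list peaks at 3 DPA. The muscle list falls, its mean log2 intensity (not the plotted difference) going from 12.55 at 0 DPA to 5.03 at 24 DPA.

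Cell type markers moved alongside, and their counts stand against the shares of all probes called, 6.70% higher and 7.54% lower from 0 to 2 DPA and 12.9% and 9.30% from 0 to 24 DPA. Of 25 skeletal muscle genes 21 fell from 0 to 2 DPA and 24 from 0 to 24 DPA (median −8.01). The list mean per array ran from 12.41 to 12.83 at 0 DPA and from 4.95 to 5.13 at 24 DPA. Of 10 macrophage genes 9 rose from 0 to 2 DPA, with list means from 7.47 to 8.31 at 0 DPA and from 8.93 to 10.28 at 2 DPA, and 1 rose from 0 to 24 DPA. Of 15 epidermis genes 9 rose by 24 DPA. The part of these shifts in the changes of the mitosis genes was not tested.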

How the data were processed

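RNA from the limb tips was hybridised to a custom Affymetrix array for axolotl. The authors deposited log2 intensities, which they had computed by RMA (background correction, quantile normalization and probe summary) with Affymetrix Expression Console. Versions are not given in the sources used here. Quantile normalization fixes the distribution of every array, so changes are relative to the other probes. The deposited values were used without further scaling. Arrays carry no read depth, and their number (9 or 10 a time point) limits the precision. After 45 control probes were left out, 20035 probes were tested. Of these, 10951 carry a single symbol in the platform annotation, which can be old.

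Time points, replicates and code series were taken from the sample titles and descriptions. Each comparison of a pair of times was a limma fit (lmFit and eBayes, version 3.58.1, under R 4.3.3) on the arrays of those times, with p adjusted over all 20035 probes. Slopes used time as a number with the set of replicates as a covariate, and interactions the product of set and time. The scripts were tested on simulated data. Genes named are, for each role, the called genes with the largest and smallest change and those not called, and the 10 genes most like the list in course. A fixed set (such as *plk1*, *ccnb1*, *mki67*, *top2a*, *smc2* and *rad21*) is named in some of the comparisons and not in all. Lists of other mitosis, DNA replication, cell cycle transcription factor and CDK inhibitor genes and of cell type markers were counted in the same way. The genes, lists and tests were chosen with earlier results of these data known. Same-numbered replicates did not deviate together (correlations from −0.39 to 0.33), so numbers were not used as pairs. Alternatives covered the fold threshold, scaling, probe choice, test, array weights, blocks and single sets. No sequence is shown, because none of the tables used here holds it, and promoter motifs were not analysed here.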

Additional observations from a re-analysis of the deposited data

Results flagged for a closer look

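At 2 to 3 DPA the change differed between the sets of replicates for 4 of the 79 genes by limma's interaction term, near the 5.12% of all probes that passed it, so the count is not a result about these genes. The change in replicates 6 to 10 minus that in replicates 1 to 5 was −1.33 for *top2a* (1.08 in replicates 1 to 5 and −0.26 in replicates 6 to 10, adjusted p = 0.0175) and −1.17 for *smc5* (0.92 and −0.25, adjusted p = 0.0143). It was 0.92 for *cenpl* (0.03 and 0.94, adjusted p = 0.0160) and 0.99 for *cenpp* (−0.36 and 0.63, adjusted p = 0.0253). Both sets changed code series in this interval, and whether that bears on the differences was not tested.

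A single array stood apart from the rest of its time point in 3 of 71 groups of arrays examined, where chance would give about 1 in 20. For *aurka* at 24 DPA, replicate 6 was lowest at 8.87 with the next array at 9.17. For *smc4* at 24 DPA, replicate 10 was lowest at 10.16 with the next at 10.36. For the mean of the 79 genes at 12 DPA, replicate 9 was lowest at 7.36 with the next at 7.75.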

How the results depend on the processing

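The 54 genes called higher from 0 to 24 DPA and the 57 within the single code series kept within 1.5 times of those counts under every alternative run, and no result changed direction. Leaving out each array of that series in turn gave 54 to 58 higher and 0 lower. The counts that follow stand without the share of all probes called under the same setting. A larger count is therefore not a stronger result for the list. Without a fold threshold the counts were 5 higher and 19 lower at 0 to 2 DPA, 18 higher and 3 lower at 2 to 3 DPA, 3 lower at 0 to 24 DPA (1 in the single series), 2 higher and 27 lower at 0 to 1.5 DPA, 2 falling from 3 to 9 DPA, 58 rising and 3 falling from 10 to 18 DPA, and 5 falling from 20 to 28 DPA. With a 2-fold threshold they were 1 higher and 1 lower at 0 to 2 DPA, 2 higher at 2 to 3, 1 higher at 3 to 4 and 3 lower at 0 to 1.5 DPA. Replicates 1 to 5 alone gave 4 lower at 0 to 2 DPA, 3 higher at 2 to 3, 0 at 18 to 20, 0 at 3 to 4, 27 lower at 0 to 1.5, 47 rising from 3 to 9, 8 rising from 10 to 18 and 1 falling from 20 to 28 DPA. Replicates 6 to 10 alone gave 1 higher at 0 to 2 DPA, 2 at 2 to 3, 3 at 9 to 10, 2 at 18 to 20, 0 at 3 to 4, 0 higher and 9 lower at 0 to 1.5, 2 rising from 3 to 9, 32 rising from 10 to 18 and 1 falling from 20 to 28 DPA. Centring arrays on their medians gave 4 higher and 5 lower at 0 to 2 DPA, 13 higher at 3 to 4 DPA and 1 interaction at 18 to 20 DPA, and a second quantile normalization 4 higher at 0 to 2 DPA. Averaging a gene's probes gave 5 lower at 0 to 2 DPA, 4 higher at 3 to 4 DPA, and 2 and 1 interactions at 9 to 10 and 18 to 20 DPA. At 3 to 4 DPA the count was 18 in 1 fit of all arrays, 28 by the methods' t-test at p 0.01 and 3 after adjustment, 14 without dim probes, 20 with the set as a block and 22 with array weights. The methods' t-test after adjustment called 4 at 2 to 3 DPA. At 18 to 20 DPA 2 genes were called by that test at p 0.01, without dim probes, with the most variable probe, with the set as a block and with array weights, and 1 fit of all arrays gave 3 interactions. The replicate block gave 3 at 2 to 3 DPA, 24 at 3 to 4 DPA and 56 in the single series, although the labels do not mark same-numbered samples as paired. The cause of these shifts was not tested. The intervals 0 to 1.5 and 3 to 4 DPA were chosen after seeing the data.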

Other observations

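The remaining cell type marker lists moved as follows, beside 6.70% of all probes called higher and 7.54% lower from 0 to 2 DPA and 12.9% and 9.30% from 0 to 24 DPA. From 0 to 2 DPA 2 of 3 neutrophil genes rose, 1 of 4 erythrocyte genes rose, none of 3 lymphocyte genes was called, 1 of 10 cartilage genes rose and 1 fell, and 3 of 9 connective tissue, 3 of 8 endothelium and 2 of 3 Schwann cell genes fell. From 0 to 24 DPA 5 of the 9 connective tissue genes, 4 of the 8 endothelium genes and 2 of the 4 erythrocyte genes fell. Over that span 1 neutrophil and 1 cartilage gene rose, 1 Schwann cell gene rose and 2 fell, and no lymphocyte gene was called. From 2 to 3 DPA none of these lists held a called gene.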
